A study of Homo sapiens with 12 samples.

Results

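Circadian clock genes were followed across the 4 groups of the study as 10 of the 60902 gene rows deposited: PER1, PER2, PER3, CRY1, CRY2, NR1D1, NR1D2, CLOCK, NPAS2 and DBP, each found by the symbol of its Ensembl identifier. In GENCODE v29 (GRCh38), PER1 and NR1D1 lie on chromosome 17, PER2 and NPAS2 on chromosome 2, PER3 on 1, CRY1 on 12, CRY2 on 11, NR1D2 on 3, CLOCK on 4 and DBP on 19. Every one of the 10 was listed in all 12 libraries, and 9 of them were among the 13854 genes tested, those that averaged 1 TPM or more. PER2, with a mean of 0.919 TPM, was not tested and is given by its values. The cells were A549/DDP, cells of A549 origin (human lung adenocarcinoma) that resist cisplatin (DDP). TRF+DDP cells received DDP, whose platinum forms crosslinks in DNA, in a culture model of time-restricted feeding (TRF). TRF cells were kept in the feeding model alone, DDP cells received the drug in normal medium, and CON cells were kept in normal medium without it, with 3 libraries in each group. In the feeding model, each 24 h cycle held 6 h of normal medium (10% FBS, glucose at 2 g/L), followed by 18 h without serum or glucose.

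Serum and glucose were withdrawn and returned together, so the 2 cannot be told apart in any TRF value. The study also washed cells with PBS at each change of medium. Whether cells in normal medium were washed at the same times is not given in the sources used here. Effects of the washes and exchanges therefore cannot be told apart from those of the withdrawal. The resistant line was maintained in 1 µg/mL DDP, and no drug-free interval before the experiments is stated in the sources used here, so earlier exposure of the TRF and CON cells is unknown. The dose and duration for sequencing are not given separately; the RT-qPCR experiment on the same line used 2 µg/mL for 48 h. The position in the feeding cycle at which RNA was taken is likewise not given in the sources used here, and each group was sampled at 1 time only. A change in the average level of a clock gene and a shift in the phase of its rhythm therefore cannot be told apart in these data. In bulk RNA, fewer cells expressing a gene and less RNA per cell cannot be told apart either.

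The circadian clock of mammalian cells is a transcription loop that repeats about once a day. CLOCK, or its paralog NPAS2, pairs with BMAL1 and activates genes that carry E-box elements, among them the PER and CRY genes, the nuclear receptor genes NR1D1 and NR1D2, and DBP. PER and CRY proteins accumulate and then repress the activators that induced them, which closes the main loop. The NR1D receptors (REV-ERB alpha and beta) repress BMAL1 and NPAS2 through elements that the ROR receptors activate, and DBP, with its relatives TEF and HLF, activates D-box genes that the repressor NFIL3 opposes. Serum, glucocorticoids and cAMP signalling set the phase of this loop in cultured cells, and PER1 is among the genes that respond to such signals within hours. In the liver of mice, the hours of feeding are a main time cue for the same genes.

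Levels are given in TPM, a scaled transcript abundance, which divides reads by transcript length and by the total of the library, so that genes can be compared within a library and each value is relative to all other transcripts. The read depth behind a value is unknown. The number of genes at 1 TPM or above was 13384 to 13500 per library in TRF+DDP, 13029 to 13307 in TRF, 13866 to 14028 in DDP and 13726 to 13854 in CON. Within-group correlations of log2 values were 0.979 to 0.983. Of 10 markers of A549-type lung epithelium, 6 averaged at least 1 TPM over the 12 libraries, with a sum of 3251 to 3362 TPM in TRF+DDP, 2989 to 3213 in TRF, 4433 to 4628 in DDP and 3662 to 3712 in CON, while the epithelial markers EPCAM, CDH1 and KRT19 averaged under 0.2 TPM. Leukocyte markers summed to 3.70 to 5.33 TPM in TRF+DDP, 1.55 to 2.11 in TRF, 4.54 to 5.41 in DDP and 3.22 to 3.53 in CON, with 1 of 8 (ITGAM) above 1 TPM and CD3E and MS4A1 at 0. Fibroblast markers, nearly all of it COL1A1, summed to 6.24 to 7.17 TPM in TRF+DDP, 10.8 to 12.1 in TRF, 16.7 to 21.8 in DDP and 14.2 to 16.7 in CON, and endothelial markers to at most 0.56 TPM. The part of these levels in the clock gene results was not tested.

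NPAS2 and PER1 were the most abundant of the 10 genes in every group, and PER2 and PER3 the least abundant. In TRF+DDP cells NPAS2 averaged 19.0 ± 4.07 TPM (SD, n = 3) and PER1 13.0 ± 0.857, followed by NR1D1, CRY2, NR1D2, CRY1, CLOCK, DBP, PER2 and PER3, of which CRY2 and NR1D2, and NR1D2 and CRY1, overlapped. In TRF cells NPAS2 averaged 47.8 ± 2.12 TPM and PER1 11.4 ± 0.831, and the lowest means were those of DBP (1.92 ± 0.423), PER3 (0.73 ± 0.20) and PER2 (0.623 ± 0.122). CLOCK overlapped NR1D1 above it and DBP below it in these cells, and the ranges of PER3 and PER2 overlapped as well. In DDP cells the mean of NPAS2 was 57.6 ± 6.37 TPM and that of PER1 16.6 ± 3.26, with NR1D2 and CRY1 next (9.12 ± 0.707 and 8.92 ± 0.425), which overlapped. In CON cells the order ran NPAS2 (39.7 ± 4.35 TPM), PER1 (18.9 ± 1.69), DBP (9.73 ± 3.02), CRY1 (7.59 ± 0.87), NR1D2 (7.01 ± 0.496), NR1D1 (5.91 ± 0.346), CRY2 (4.96 ± 0.242), CLOCK (2.18 ± 0.375), PER3 (2.05 ± 0.478) and PER2 (1.04 ± 0.351). DBP and CRY1, CRY1 and NR1D2, and CLOCK and PER3 overlapped in CON, and the other neighbours did not. DBP followed directly on PER1 in CON and stood below CLOCK in both groups kept in the feeding model.

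**Figure D1:**
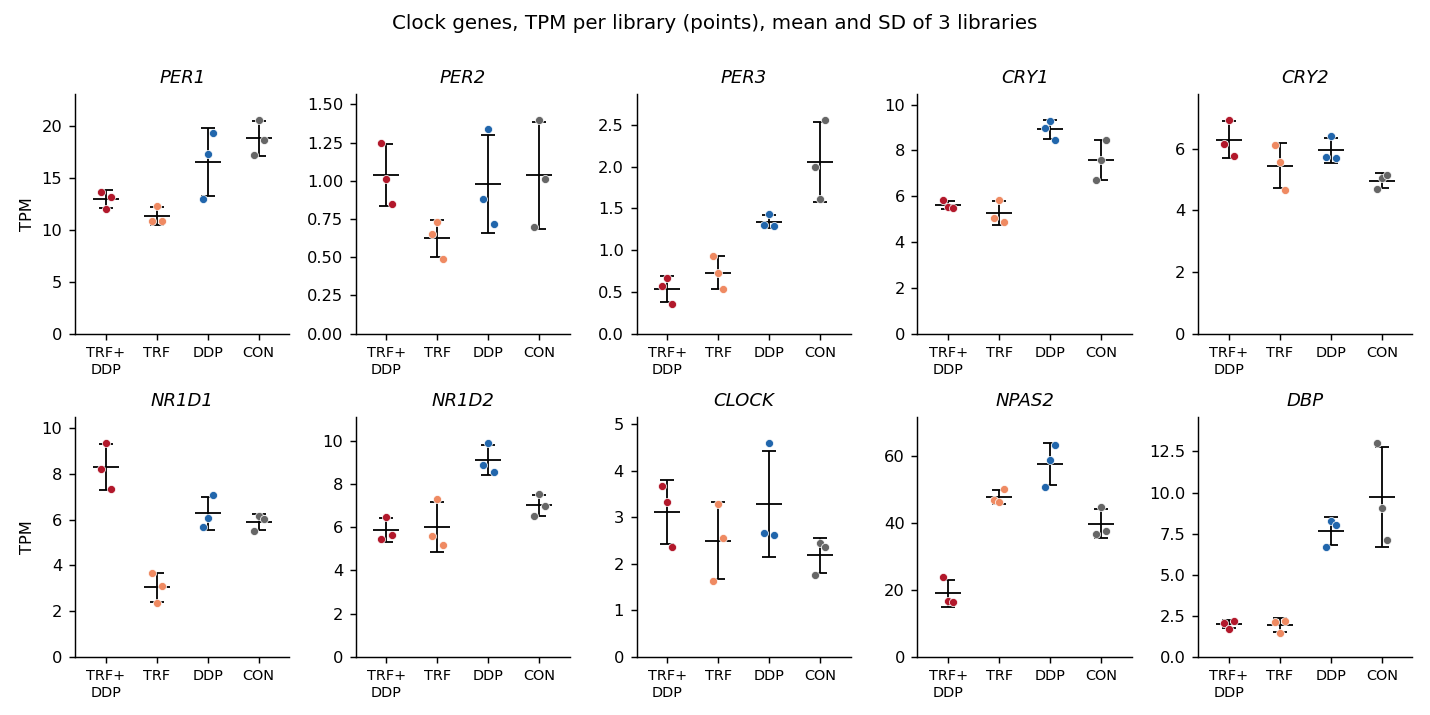
TPM (vertical axes, linear, from 0, a scale for each gene) of the 10 clock genes in TRF+DDP, TRF, DDP and CON cells; points are libraries, the long bar is the mean and the error bar the SD of 3 libraries. DBP lies below 2.2 TPM in all 6 libraries of the feeding model and above 6.6 TPM in the other 6, NPAS2 is lowest in TRF+DDP (16.5 to 23.7 TPM), and NR1D1 is lowest in TRF (2.36 to 3.65 TPM) and highest in TRF+DDP (7.33 to 9.37 TPM).

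Differences were tested with limma on log2(TPM + 1), in 1 fit of all 4 groups, and a gene was called at a Benjamini-Hochberg adjusted p under 0.05 over all 13854 genes together with a fold over 1.5 on that scale, which understates the change of low genes. In TRF against CON, 4 of the 9 clock genes tested fell (DBP, PER3, NR1D1 and PER1) and 0 rose, where 17.1% of all genes tested were called lower and 8.41% higher. With DDP in both arms (TRF+DDP against DDP), 3 fell (NPAS2, DBP and PER3) and 0 rose, where 21.4% of all genes were lower and 11.8% higher. The median log2 fold change of the 9 genes was -0.46 in TRF against CON and -0.56 in TRF+DDP against DDP, beside -0.11 and -0.10 over all genes tested. PER3 and DBP were called lower in both, NR1D1 and PER1 only in the arm without the drug, and NPAS2 only in the arm with it. PER3 passed the filter through its libraries in normal medium, so the filter favours its place in the counts of falls. Of the genes called in 1 arm, the interaction tested below gave a difference between the arms for NR1D1 and NPAS2 and not for PER1.

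DDP in normal medium gave no call among the clock genes. In DDP against CON, 0 of 9 were called by limma, where 1.86% of all genes were higher and 0.159% lower. At an adjusted p under 0.05 without the fold, 1 of the 9 was higher (NPAS2) and 0 lower, beside 1389 and 301 of the 13854 genes tested. In TRF medium, the drug was followed by 1 higher and 1 lower clock gene (TRF+DDP against TRF), NR1D1 and NPAS2, where 10.2% of all genes were higher and 6.1% lower. Against CON, TRF+DDP cells had 3 clock genes lower (DBP, NPAS2 and PER3) and 0 higher, where 19.5% of all genes were lower and 15.6% higher. The interaction of feeding model and drug, called at the adjusted p alone, was called for 2 of 9, NR1D1 and NPAS2, where it was called for 29.8% of all genes tested. The comparisons that hold TRF+DDP share its 3 libraries, so their values stand side by side and are not independent of each other.

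The scaling of the libraries bears on the smaller of these changes. The median of all genes in TRF against CON was -0.11 in TPM, -0.02 after TMM-style scaling and 0.00 after quantile normalization. Relative to the median gene, the changes in TRF against CON were -1.74 for DBP, -0.70 for PER3, -0.675 for NR1D1 and -0.57 for PER1, and in TRF+DDP against DDP they were -1.47 for NPAS2, -1.44 for DBP and -0.52 for PER3. Calls over all genes moved with it: in TRF against CON, 1165 genes were higher and 2375 lower in TPM, 1585 and 1894 after TMM-style scaling, and 1625 and 1635 after quantile normalization. In TRF+DDP against DDP the split was 1631 higher and 2968 lower in TPM, 2061 and 2456 after TMM-style scaling, and 2179 and 2273 after quantile normalization. In TRF+DDP against TRF it was 1413 higher and 845 lower in TPM, 1178 and 1049 after TMM-style scaling, and 1049 and 1066 after quantile normalization, and in DDP against CON it was 257 higher and 22 lower in TPM and 169 and 46 after quantile normalization.

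**Figure D2:**
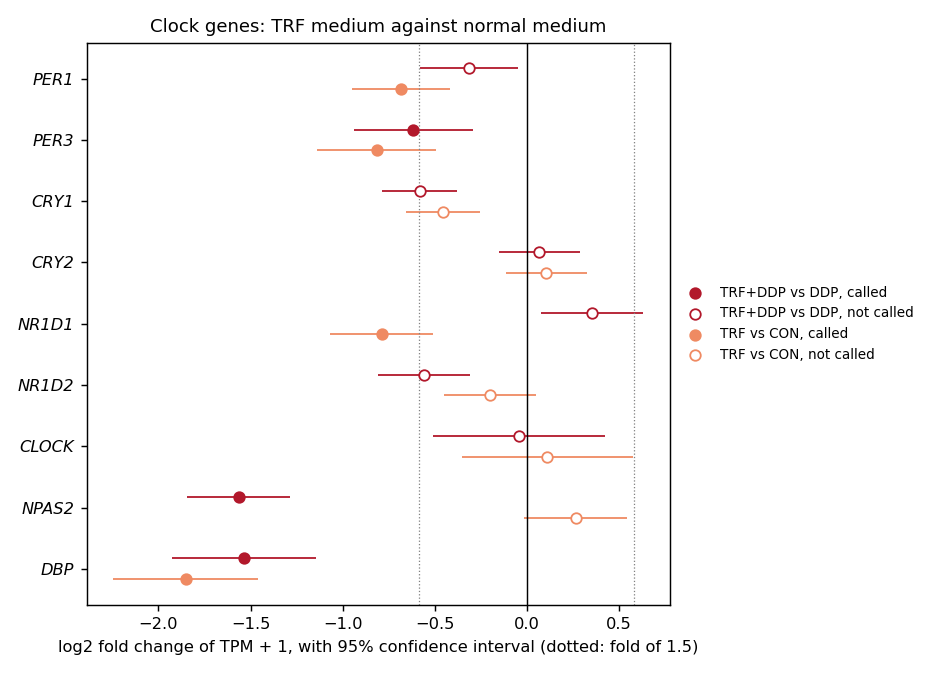
Log2 fold change of TPM + 1 (horizontal axis) of the 9 clock genes tested, for TRF+DDP against DDP (red, upper of each pair) and TRF against CON (orange, lower), with 95% confidence intervals from limma; filled points were called, open points were not, and dotted lines mark a fold of 1.5. The points of DBP and PER3 lie on the same side in both comparisons, while those of NR1D1 (0.35 and -0.79) and NPAS2 (-1.56 and 0.27) lie on opposite sides of 0.

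The D-box activator DBP had the largest fall of the 9 genes tested in TRF against CON. It stood at 2.13, 1.43 and 2.19 TPM in TRF cells, against 13.03, 9.04 and 7.11 TPM in CON cells. With the drug it stood at 2.07, 1.69 and 2.19 TPM in TRF+DDP cells, against 6.68, 8.25 and 8.03 TPM in DDP cells. All 6 libraries of the feeding model lay below all 6 in normal medium, with the mean in CON resting in part on 1 high library. On the log2(TPM + 1) scale DBP fell by 1.85 (SE 0.18, limma adjusted p = 2.58e-06) in TRF against CON and by 1.54 (SE 0.18, adjusted p = 9.39e-06) in TRF+DDP against DDP, and the call held under every scaling tried. The drug itself gave no call in DBP in either medium (log2 fold change -0.28, 95% interval -0.67 to 0.12, in DDP against CON, and 0.04, -0.35 to 0.43, in TRF+DDP against TRF). Of its exons, 10.1% (661 bases) overlap SPHK2 on the opposite strand, which averaged 16.1 TPM in TRF+DDP, 13.1 in TRF, 10.5 in DDP and 8.59 in CON, highest where DBP was low. Whether the counting used strand is not given in the sources used here.

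Among the PER genes, whose proteins repress CLOCK and BMAL1 complexes, the most abundant was PER1, which is also an immediate target of serum and cAMP signals. PER1 stood at 10.89, 12.32 and 10.87 TPM in TRF cells, against 17.29, 20.65 and 18.65 TPM in CON cells. In TRF+DDP cells it stood at 13.72, 12.05 and 13.22 TPM, against 13.01, 17.31 and 19.41 TPM in DDP cells. The TRF and CON libraries did not overlap, while 1 DDP library lay within the TRF+DDP range. PER1 fell by 0.68 (SE 0.122, limma adjusted p = 3.89e-04) in TRF against CON. Its log2 fold change in TRF+DDP against DDP was -0.31 (95% interval -0.58 to -0.05, limma adjusted p = 0.0387), under the fold required. The call in TRF against CON was lost after TMM-style scaling (-0.58) and quantile normalization (-0.56), both just under a fold of 1.5. The interaction for PER1 was 0.37 (95% interval -0.005 to 0.745, limma adjusted p = 0.129) and was called without DDP replicate 3 (0.49), the highest DDP library.

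PER3, a PER paralog that the core loop can do without in mice, was scarcer and fell in both arms. It stood at 0.93, 0.73 and 0.53 TPM in TRF cells, against 1.99, 1.61 and 2.56 TPM in CON cells. In TRF+DDP cells the values were 0.57, 0.67 and 0.36 TPM, against 1.30, 1.43 and 1.29 TPM in DDP cells. Neither pair of groups overlapped, and PER3 in CON cells also lay above all 3 DDP libraries. PER3 fell by 0.81 (SE 0.149, limma adjusted p = 4.70e-04) in TRF against CON and by 0.61 (SE 0.149, adjusted p = 0.00294) in TRF+DDP against DDP, on a scale that compresses values this low. Mean TPM in TRF was 0.356 of that in CON and in TRF+DDP 0.398 of that in DDP. The first call was lost after quantile normalization (-0.58), and the second after quantile normalization (-0.37), after TMM-style scaling (-0.56) and without TRF+DDP replicate 3 (-0.53), which held the lowest value. PER3 averaged 1.16 TPM over the 12 libraries and passed the filter through CON and DDP (means 2.05 and 1.34 TPM). Its means in TRF and TRF+DDP were under 1 TPM (0.73 and 0.533), so the filter favours a fall of PER3 in the feeding model.

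PER2, the PER protein with the strongest part in the loop of mice, was low throughout. The values were 1.25, 1.01 and 0.85 TPM in TRF+DDP cells, against 0.88, 1.34 and 0.72 TPM in DDP cells. They were 0.65, 0.73 and 0.49 TPM in TRF cells, against 0.70, 1.40 and 1.01 TPM in CON cells. Both pairs of groups overlapped, and the 12 values all lay between 0.49 and 1.40 TPM. Between the groups of the feeding model, the TRF+DDP values all lay above the TRF values (means 1.04 and 0.623 TPM), a difference without a test. A transcript on the opposite strand, ENSG00000225057, shares 188 exon bases with PER2 and averaged 5.64 TPM in TRF+DDP cells and at most 0.007 TPM in the other groups. The shared stretch is 2.7% of the PER2 exon bases, and without strand reads within it cannot be assigned to either gene.

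The CRY genes encode the partners of PER that bind the activators directly. CRY1, the stronger repressor, stood at 5.82, 5.54 and 5.50 TPM in TRF+DDP cells, against 8.99, 9.30 and 8.46 TPM in DDP cells. It stood at 5.07, 5.84 and 4.86 TPM in TRF cells, against 6.73, 7.58 and 8.47 TPM in CON cells. CRY1 was lower in every library of the feeding model than in any library in normal medium, by amounts under the fold required: the log2 fold change was -0.58 (95% interval -0.78 to -0.38, limma adjusted p = 1.27e-04) with the drug and -0.46 (-0.66 to -0.25, adjusted p = 0.00102) without it. With the drug CRY1 passed the fold without DDP replicate 3 (-0.62) or without TRF+DDP replicate 1 (-0.60).

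CRY2, the paralog of CRY1, was not called in any comparison. Its values were 6.15, 6.94 and 5.77 TPM in TRF+DDP cells, against 5.74, 6.40 and 5.69 TPM in DDP cells, and 6.11, 5.57 and 4.66 TPM in TRF cells, against 4.69, 5.05 and 5.15 TPM in CON cells. The groups overlapped in both pairs. The log2 fold change was 0.07 (95% interval -0.15 to 0.29) in TRF+DDP against DDP and 0.11 (-0.11 to 0.33) in TRF against CON, and neither was called. The log2 ratio of CRY1 to CRY2 within a library, computed on TPM + 1, was -0.14 ± 0.125 in TRF+DDP and -0.04 ± 0.163 in TRF, against 0.515 ± 0.047 in DDP and 0.52 ± 0.092 in CON (SD, n = 3). All 6 ratios in the feeding model lay below the 6 in normal medium, a difference described here without a test.

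NR1D1 (REV-ERB alpha), the heme-binding repressor of BMAL1, was lower in TRF cells than in CON cells and higher in TRF+DDP cells than in DDP cells. It stood at 3.65, 2.36 and 3.09 TPM in TRF cells, against 5.52, 6.18 and 6.03 TPM in CON cells. With the drug it stood at 8.24, 9.37 and 7.33 TPM in TRF+DDP cells, against 5.68, 6.08 and 7.07 TPM in DDP cells. The 3 TRF libraries were the lowest of the 12 and the 3 TRF+DDP libraries the highest, with no overlap in either pair. NR1D1 fell by 0.79 (SE 0.128, limma adjusted p = 1.86e-04) in TRF against CON, a call lost after quantile normalization (-0.57). In TRF+DDP against DDP the log2 fold change was 0.35 (SE 0.128, adjusted p = 0.0273), under the fold required. Between the 2 groups of the feeding model, NR1D1 rose by 1.21 (SE 0.128, adjusted p = 9.48e-06) in TRF+DDP against TRF, whereas in normal medium the value in DDP against CON was 0.07 (95% interval -0.21 to 0.35). The interaction was 1.14 (SE 0.18, 95% interval 0.75 to 1.54, limma adjusted p = 5.95e-04).

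NR1D1 lies tail to tail with THRA, a thyroid hormone receptor gene on the opposite strand, and 263 bases (9.5%) of the NR1D1 exons are shared with it. THRA averaged 5.59 TPM in TRF+DDP cells, 10.3 in TRF, 12.3 in DDP and 13.3 in CON. It was lowest where NR1D1 was highest, and its order over the groups was not that of NR1D1.

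NR1D2 (REV-ERB beta), the paralog with which NR1D1 shares many targets, was not called in any comparison. Its values were 5.46, 6.50 and 5.66 TPM in TRF+DDP cells, against 8.88, 9.92 and 8.57 TPM in DDP cells. They were 5.59, 7.33 and 5.16 TPM in TRF cells, against 6.54, 7.53 and 6.97 TPM in CON cells. The DDP libraries were the 3 highest of the 12, and the TRF and CON libraries overlapped. The log2 fold change was -0.56 (95% interval -0.81 to -0.31, limma adjusted p = 9.45e-04) in TRF+DDP against DDP, just under the fold required and past it without DDP replicate 3 (-0.60) or TRF+DDP replicate 2 (-0.62), and -0.20 (-0.45 to 0.05) in TRF against CON. The log2 ratio of NR1D1 to NR1D2 on TPM + 1 was 0.44 ± 0.101 in TRF+DDP, -0.80 ± 0.443 in TRF, -0.48 ± 0.204 in DDP and -0.21 ± 0.034 in CON (SD, n = 3). It was above 0 in the 3 TRF+DDP libraries and below 0 in the other 9.

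NPAS2, the activator paralog that can stand in for CLOCK, was the most abundant member and fell in the combination, with no fall called under either treatment alone. It stood at 23.70, 16.80 and 16.50 TPM in TRF+DDP cells, against 50.68, 58.76 and 63.26 TPM in DDP cells. Without the drug it stood at 46.92, 46.31 and 50.24 TPM in TRF cells, against 36.75, 44.70 and 37.66 TPM in CON cells. The 3 TRF+DDP libraries were the lowest of the 12 by a wide gap, the DDP libraries the highest, and every TRF library lay above every CON library. NPAS2 fell by 1.56 (SE 0.128, limma adjusted p = 5.01e-07) in TRF+DDP against DDP, by 1.31 (adjusted p = 6.72e-06) against TRF and by 1.04 (adjusted p = 1.64e-05) against CON. In TRF against CON the log2 fold change was 0.27 (95% interval -0.01 to 0.55, adjusted p = 0.0916). In DDP against CON it was 0.52 (SE 0.128, adjusted p = 0.0216), under the fold required, and 0.61 and called without CON replicate 2 or without DDP replicate 1. The interaction was -1.83 (SE 0.181, 95% interval -2.23 to -1.43, limma adjusted p = 2.46e-05).

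NPAS2 is also the longest of the 10 genes, with a span of 176.7 kb on chromosome 2 in GENCODE v29 (GRCh38), followed by CLOCK (119.2 kb) and CRY1 (102.5 kb), while NR1D1 and DBP span 7.9 and 7.4 kb. Genes over 100 kb moved with the combination: 45.1% of 2386 such genes were called lower in TRF+DDP against DDP, beside 16.4% of the 11204 shorter genes. In TRF+DDP against TRF the shares were 22.3% and 2.7%, and in TRF against CON 21.0% and 16.2%. The 100 kb limit was chosen after the values were seen, and the part of gene length in the NPAS2 result was not tested.

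CLOCK itself was variable and low. It stood at 3.66, 3.33 and 2.35 TPM in TRF+DDP cells, against 2.65, 4.60 and 2.61 TPM in DDP cells, and at 1.63, 3.28 and 2.56 TPM in TRF cells, against 1.75, 2.44 and 2.35 TPM in CON cells. The groups overlapped in both pairs, with the highest value in DDP replicate 2. The log2 fold change was -0.04 (95% interval -0.51 to 0.42) in TRF+DDP against DDP, with a sign that turned positive after TMM-style scaling (0.04) and quantile normalization (0.20), and 0.11 (-0.35 to 0.58) in TRF against CON, intervals wide enough to hold changes of nearly 1.5-fold. The log2 ratio of NPAS2 to CLOCK on TPM + 1 was 2.28 ± 0.206 in TRF+DDP, 3.83 ± 0.361 in TRF, 3.80 ± 0.37 in DDP and 3.68 ± 0.133 in CON (SD, n = 3). NPAS2 exceeded CLOCK in all 12 libraries, by the smallest margin in the 3 TRF+DDP libraries.

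**Figure D3:**
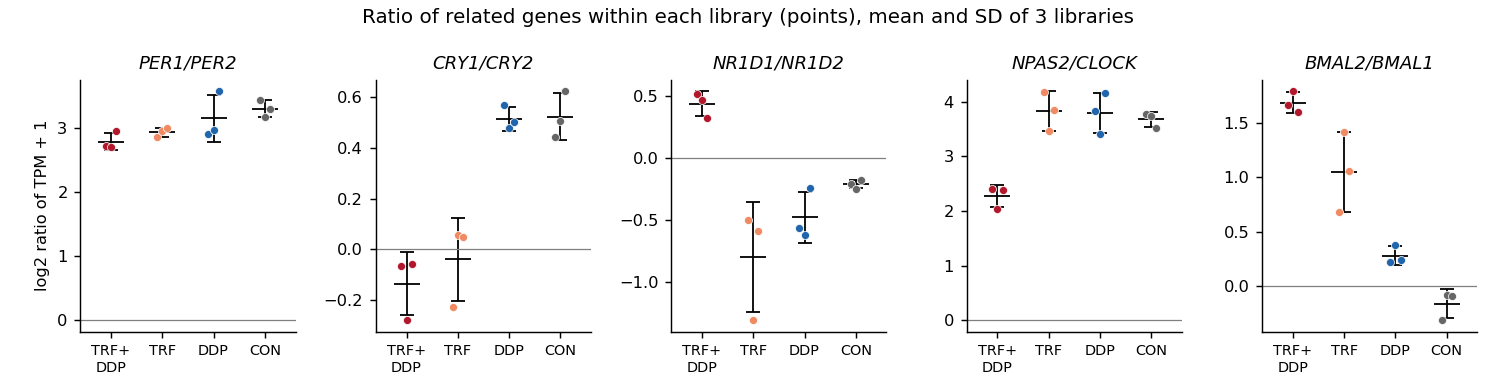
Log2 ratio of TPM + 1 within each library (vertical axes) for PER1 to PER2, CRY1 to CRY2, NR1D1 to NR1D2, NPAS2 to CLOCK and BMAL2 to BMAL1, in TRF+DDP, TRF, DDP and CON cells; points are libraries, with the mean and SD of 3. The CRY ratio separates the feeding model from normal medium, the NR1D ratio is above 0 in TRF+DDP alone (0.44 ± 0.101), and the NPAS2 ratio is lowest in TRF+DDP (2.28 ± 0.206).

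The promoters of the 5 clock genes called in the feeding comparisons (PER1, PER3, NR1D1, NPAS2 and DBP) are shown. Each run is the 250 bases before a RefSeq start site (GRCh38.p14), 5′ to 3′ on the strand of the gene, with capitals for matches to the E-box CACGTG, the related CACGTT, the D-boxes TTATGTAA and TTACGTAA, the ROR elements TAGGTCA and TGGGTCA, or the cAMP element TGACGTCA, all searched on both strands.
PER1, chr17:8152405-8152654, minus strand: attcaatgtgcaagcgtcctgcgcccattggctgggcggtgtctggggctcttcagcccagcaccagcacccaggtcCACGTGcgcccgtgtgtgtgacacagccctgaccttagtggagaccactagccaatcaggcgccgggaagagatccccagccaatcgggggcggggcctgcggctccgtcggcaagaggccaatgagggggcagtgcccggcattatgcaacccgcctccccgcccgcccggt
PER3, chr1:7784041-7784290, plus strand: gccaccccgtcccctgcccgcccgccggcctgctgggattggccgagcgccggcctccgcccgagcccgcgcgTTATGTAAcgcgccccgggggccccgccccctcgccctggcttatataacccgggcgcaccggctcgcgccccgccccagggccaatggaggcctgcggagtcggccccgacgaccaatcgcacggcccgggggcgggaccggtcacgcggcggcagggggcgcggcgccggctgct
NR1D1, chr17:40100590-40100839, minus strand: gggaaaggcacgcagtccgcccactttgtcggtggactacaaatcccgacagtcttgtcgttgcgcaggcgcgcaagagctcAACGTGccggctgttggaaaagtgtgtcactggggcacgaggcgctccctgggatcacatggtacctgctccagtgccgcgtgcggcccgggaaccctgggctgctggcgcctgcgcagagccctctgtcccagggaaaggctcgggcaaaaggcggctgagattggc
NPAS2, chr2:100819889-100820138, plus strand: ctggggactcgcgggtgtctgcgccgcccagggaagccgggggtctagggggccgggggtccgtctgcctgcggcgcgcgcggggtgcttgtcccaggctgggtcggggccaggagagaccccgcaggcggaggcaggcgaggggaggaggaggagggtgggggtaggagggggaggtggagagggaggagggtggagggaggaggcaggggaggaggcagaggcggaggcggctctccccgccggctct
DBP, chr19:48637380-48637629, minus strand: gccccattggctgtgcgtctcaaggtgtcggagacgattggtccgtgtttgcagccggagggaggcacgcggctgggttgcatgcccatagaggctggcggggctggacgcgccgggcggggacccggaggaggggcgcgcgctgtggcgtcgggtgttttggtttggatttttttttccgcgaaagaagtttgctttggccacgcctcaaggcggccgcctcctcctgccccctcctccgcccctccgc

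PER1 held a CACGTG from 173 to 168 bases before its start, a motif in 6.32% of 34943 RefSeq windows of the same length. NR1D1 held AACGTG, the reverse complement of CACGTT, from 168 to 163 bases before its start (4.55% of windows), and PER3 held the D-box TTATGTAA from 177 to 170 bases before its start (0.84% of windows). The windows shown for NPAS2 and DBP held none of these letters, and the second PER3 start site likewise. Of all 10 members, 8 held at least 1 match in 14 windows, among them NR1D2 with 2 CACGTG motifs and CRY1, CRY2, PER2 and CLOCK with CACGTT on either strand. TTACGTAA occurred in 0.11% of windows, TAGGTCA in 1.61%, TGGGTCA in 3.27% and TGACGTCA in 1.63%. No 2 matches overlapped in the windows printed, since each held at most 1.

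Beyond the 10 genes, 12 other factors of the loop were followed, of which 7 passed the filter. In TRF against CON 1 of the 7 rose (BMAL2) and 2 fell (NFIL3 and TEF), and in TRF+DDP against DDP 0 rose and 3 fell (BMAL1, NFIL3 and TEF). Of all genes tested, 8.41% were higher and 17.1% lower in TRF against CON, and 11.8% higher and 21.4% lower in TRF+DDP against DDP. The medians of the 7 were -0.38 and -0.43, beside -0.11 and -0.10 over all genes. BMAL1, the partner of CLOCK and NPAS2, stood at 4.81, 4.41 and 4.44 TPM in TRF+DDP cells, against 10.46, 9.85 and 10.27 TPM in DDP cells, and at 9.21, 7.53 and 7.22 TPM in TRF cells, against 11.17, 9.34 and 9.84 TPM in CON cells. The TRF+DDP libraries were the 3 lowest for BMAL1, as they were for NPAS2, and the 3 highest for NR1D1. In TRF cells NR1D1 averaged 3.03 TPM, against 5.91 in CON cells. BMAL1 was also lower there (7.99 against 10.1 TPM), while NPAS2 was higher (47.8 against 39.7 TPM). A link between the levels of these genes was not tested. BMAL1 fell by 1.01 (SE 0.095, limma adjusted p = 1.26e-06) in TRF+DDP against DDP and had a log2 fold change of -0.31 in TRF against CON, with an interaction of -0.70 (adjusted p = 0.00208). It spans 110.6 kb, and as for NPAS2 the part of that length was not tested.

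BMAL2, the paralog of BMAL1, went the other way. It stood at 15.35, 21.71 and 16.12 TPM in TRF cells, against 8.80, 8.80 and 9.22 TPM in CON cells, and rose by 0.90 (SE 0.107, limma adjusted p = 1.47e-05). In TRF+DDP cells it stood at 17.38, 17.74 and 15.55 TPM, against 12.34, 13.15 and 12.31 TPM in DDP cells (log2 fold change 0.39, limma adjusted p = 0.00611, under the fold required). The interaction was called at -0.50 (adjusted p = 0.0255), a call lost without CON replicate 1 or 2, DDP replicate 2 or TRF+DDP replicate 3 and when all genes were tested without the filter on low values. The log2 ratio of BMAL2 to BMAL1 on TPM + 1, chosen after the values were seen, was 1.69 ± 0.096 in TRF+DDP, 1.05 ± 0.367 in TRF, 0.28 ± 0.089 in DDP and -0.16 ± 0.134 in CON (SD, n = 3), with no overlap between any 2 groups.

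**Figure D4:**
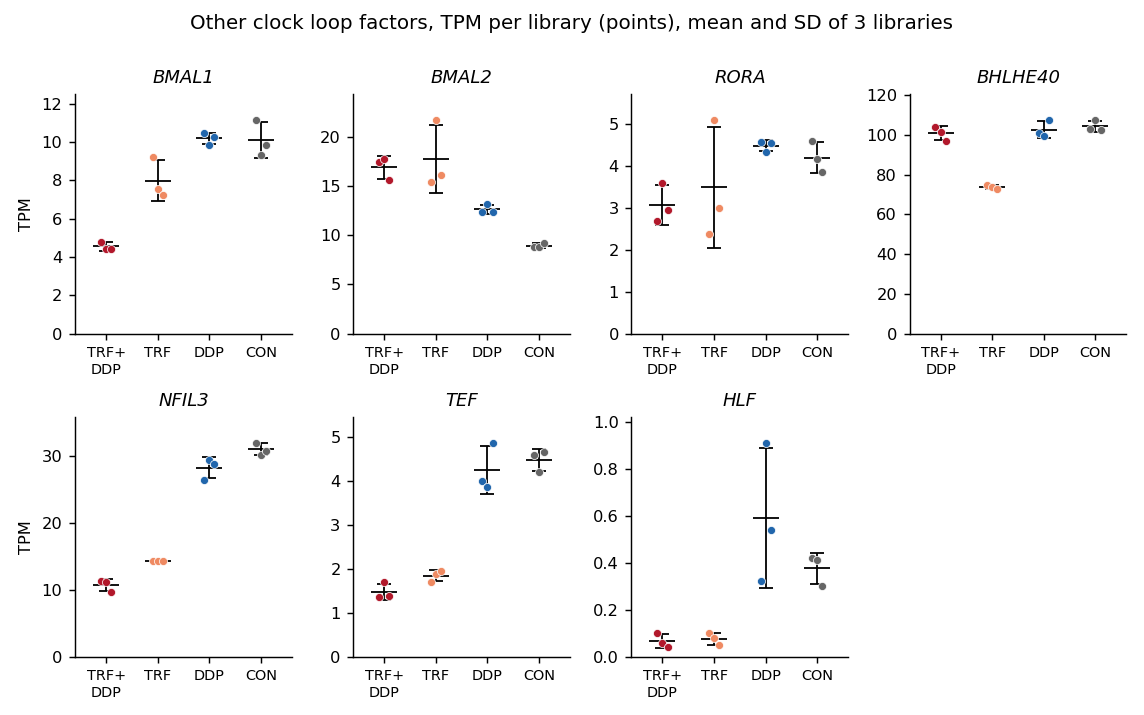
TPM (vertical axes, linear, from 0, a scale for each gene) of 7 other clock loop factors in TRF+DDP, TRF, DDP and CON cells; points are libraries, with the mean and SD of 3. BMAL1 is lowest in TRF+DDP (4.41 to 4.81 TPM), BHLHE40 is lowest in TRF, and NFIL3, TEF and HLF are lower in all 6 libraries of the feeding model than in the other 6.

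The D-box factors moved with DBP. TEF, an activator of the same family, stood at 1.70, 1.89 and 1.94 TPM in TRF cells, against 4.60, 4.20 and 4.65 TPM in CON cells, and fell by 0.95 (SE 0.105, limma adjusted p = 7.90e-06). In TRF+DDP cells it stood at 1.36, 1.69 and 1.39 TPM, against 3.99, 3.87 and 4.87 TPM in DDP cells, and fell by 1.08 (SE 0.105, adjusted p = 1.75e-06). HLF, the remaining activator, was too low to be tested, with 0.04 to 0.10 TPM in the 6 libraries of the feeding model and 0.30 to 0.91 TPM in the 6 in normal medium. NFIL3, which represses through the same element, fell as well: it stood at 14.36, 14.33 and 14.38 TPM in TRF cells, against 32.00, 30.21 and 30.83 TPM in CON cells (log2 fold change -1.06, SE 0.066, adjusted p = 5.51e-08). In TRF+DDP cells it stood at 11.30, 11.11 and 9.68 TPM, against 26.48, 29.45 and 28.85 TPM in DDP cells, and fell by 1.32 (SE 0.066, adjusted p = 4.50e-09). Activators and repressor of the element were lower together in every library of the feeding model.

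RORA, a receptor that activates the elements that NR1D1 and NR1D2 repress, ranged from 2.68 to 3.61 TPM in TRF+DDP, 2.37 to 5.11 in TRF, 4.34 to 4.58 in DDP and 3.85 to 4.59 in CON, without a call in either feeding comparison. BHLHE40 (DEC1), an E-box repressor, stood at 72.66 to 74.61 TPM in TRF cells, against 102.4 to 107.6 TPM in CON cells, and at 97.01 to 104.2 TPM in TRF+DDP cells, against 99.25 to 107.7 TPM in DDP cells. As with NR1D1, its TRF libraries were the lowest of the 12, with an interaction of 0.47 (limma adjusted p = 1.52e-04), and neither feeding comparison passed the fold.

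Genes known as rhythmic outputs of the loop were followed as a list of 16, of which 15 were tested. In TRF against CON 1 rose (NOCT) and 4 fell (POR, KLF9, FKBP5 and AVPI1), and in TRF+DDP against DDP 2 rose (NOCT and GPCPD1) and 6 fell (POR, FKBP5, KLF10, PPARD, NAMPT and AVPI1), beside 8.41% of all genes higher and 17.1% lower in TRF against CON and 11.8% higher and 21.4% lower in TRF+DDP against DDP. The medians of the 15 were -0.17 and -0.51, beside -0.11 and -0.10 over all genes. NOCT, a rhythmic phosphatase of NADP(H), stood at 20.21, 17.60 and 18.60 TPM in TRF+DDP cells, against 6.50, 6.67 and 6.78 TPM in DDP cells, and rose by 1.37 (SE 0.079, limma adjusted p = 1.53e-08). In TRF cells it stood at 9.64, 10.05 and 9.47 TPM, against 6.05, 5.62 and 5 TPM in CON cells, and rose by 0.71 (SE 0.079, adjusted p = 7.83e-06). POR, the electron donor of cytochrome P450 enzymes and a target of the D-box factors in mouse liver, stood at 61.19, 53.78 and 53.83 TPM in TRF cells, against 155.5, 156.5 and 154.5 TPM in CON cells. It fell by 1.45 (SE 0.051, adjusted p = 4.31e-10) there and by 1.53 (SE 0.051, adjusted p = 1.76e-10) in TRF+DDP against DDP. FKBP5, a chaperone partner that spans 155.0 kb, fell by 0.71 and 1.01 in the same comparisons in the order TRF against CON and TRF+DDP against DDP. The part of that length was not tested. KLF9, a clock-driven factor, fell by 1.00 in TRF against CON, with means of 0.463 and 1.93 TPM. It passed the filter through the other groups, so the filter favours its fall in TRF. After TMM-style scaling AVPI1 was not called in either comparison and NAMPT not in TRF+DDP against DDP.

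**Figure D5:**
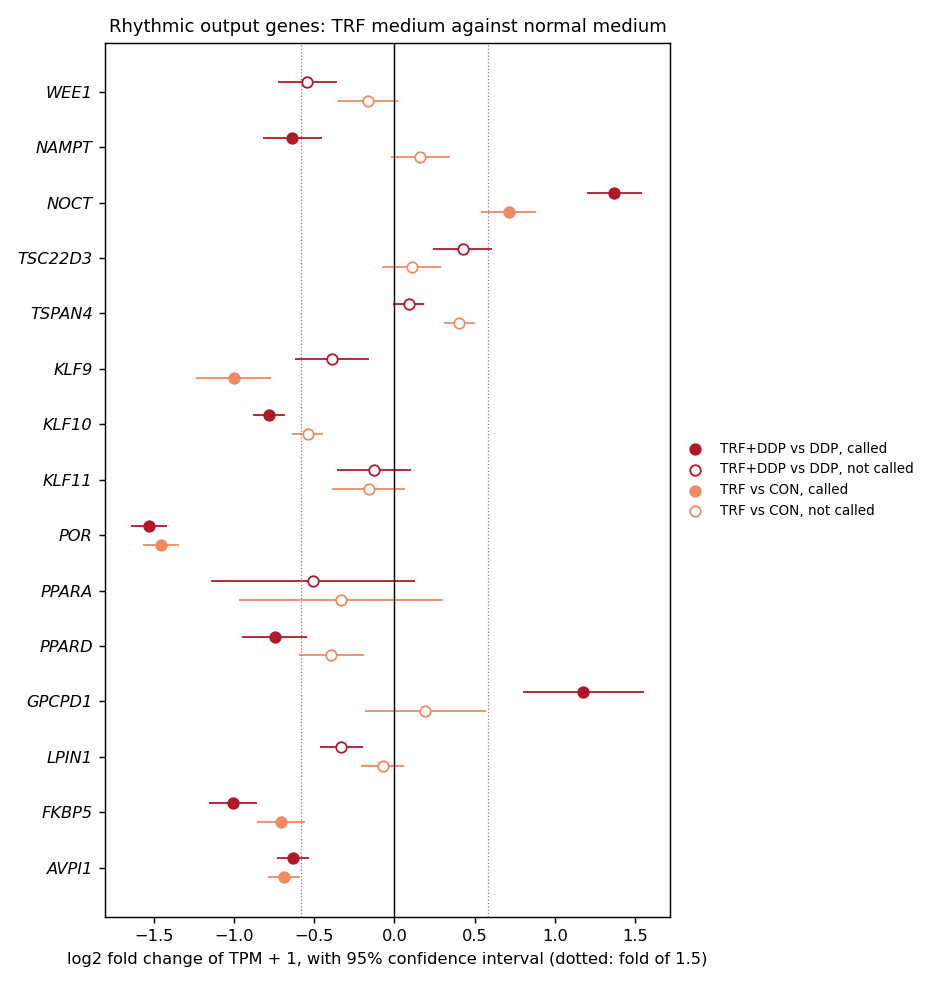
Log2 fold change of TPM + 1 (horizontal axis) of the 15 rhythmic output genes tested, for TRF+DDP against DDP (red, upper of each pair) and TRF against CON (orange, lower), with 95% confidence intervals from limma; filled points were called and dotted lines mark a fold of 1.5. POR lies near -1.5 in both comparisons, and NOCT is the only gene of the list called higher in both.

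Profiles over the 4 group means were compared to name the genes most like the 3 members that varied most, among 9886 genes with a symbol and an average of 5 TPM or more, by the root mean square difference of the centred log2 values. For DBP these were HHIPL2 (0.028), CHMP1B (0.048) and SYT15-AS1 (0.052), for NPAS2 they were GPR39 (0.091), THRB (0.102) and COL5A1 (0.112), and for NR1D1 they were RFK (0.033), MT-RNR2 (0.072) and TMEM151A (0.073). RFK, for example, averaged 54.3 TPM in TRF+DDP, 23.0 in TRF, 42.0 in DDP and 38.0 in CON. The measure rests on 4 points per gene.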

How the data were processed

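RNA of A549/DDP cells was sequenced in 4 groups of 3 libraries, grouped by their labels. The labels name A549/DDP, while the study's text on RNA extraction names A549. The authors selected RNA with oligo(dT), used SeqPrep and sickle for trimming, HISAT2 for alignment and StringTie for assembly, and deposited TPM per library. The submitters' processing notes also name edgeR, and the study's own differential test was DESeq2 on counts not analysed here. Versions, genome build, quantification tool and use of strand were not given in the sources used here. This file also holds the authors' group means, which were not used, and 0 sample columns were left unmapped.

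TPM was analysed as log2(TPM + 1) with limma 3.58.1 (R 4.3.3; trend, robust) over the 13854 genes averaging 1 TPM or more, in 1 model of the 4 groups, and p-values were adjusted by Benjamini-Hochberg. The legend of the study's figure with the sequencing and RT-qPCR panels states 3 biological replicates per group. How the replicates were kept apart is not given in the sources used here. They are taken as separate samples, and p-values measure the spread between these libraries. Depth is unknown, and precision is limited by 3 libraries per group. The step was tested on simulated data.

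All 10 members were named, other list genes where called or among the loop factors, and up to 3 genes of like profile for the 3 members that varied most over the groups. Members and lists were chosen with earlier results of these data known. Alternatives were TMM-style scaling (trims of 0.3 and 0.05), quantile normalization, no filter, a pseudocount of 0.1, no trend, no threshold on the fold, a model with a replicate block, models of the compared groups alone, and the omission of each library. Some list genes are not reported here. Locations are from GENCODE v29 and promoters from RefSeq (GRCh38.p14). Python 3.11.15, numpy 2.4.6, pandas 2.3.3 and matplotlib 3.10.9 were also used.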

Additional observations from a re-analysis of the deposited data

Results flagged for a closer look

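The effect of the feeding model on 2 of the 9 clock genes tested differed between cells with and without DDP, by limma's test of the interaction (TRF+DDP minus DDP, minus TRF minus CON). That interaction was called for 29.8% of all 13854 genes tested, so it is not particular to the clock genes. For NR1D1 the difference was 1.14 on the log2 scale (adjusted p = 5.95e-04): the effect was 0.35 with the drug and -0.79 without it. For NPAS2 the difference was -1.83 (adjusted p = 2.46e-05): the effect was -1.56 with the drug and 0.27 without it. Both kept their direction and their call under every alternative tried.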

How the results depend on the processing

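The number of clock genes called fell to 1 (DBP) after quantile normalization in TRF against CON, where 4 were called in TPM. In TRF+DDP against DDP, 3 in TPM, it was 5 with a pseudocount of 0.1 and 7 with no fold threshold, and ranged from 2 to 5 with each library left out. With no fold threshold it was 1 in DDP against CON (0 with it) and 7 in TRF+DDP against CON (3 with it). Without that threshold, 3740 of the 13854 genes tested were higher and 5316 lower in TRF+DDP against DDP, 1389 and 301 in DDP against CON, and 4426 and 4888 in TRF+DDP against CON. In TRF+DDP against DDP, 1806 of all genes were higher and 3333 lower with a pseudocount of 0.1, beside 1631 and 2968 in the main fit. With each library left out they were 1587 to 1675 and 2865 to 3020. In TRF against CON the same omissions gave 1149 to 1207 higher and 2250 to 2614 lower, with 2614 reached without TRF replicate 2. Omitting that library also gave 1632 higher and 824 lower in TRF+DDP against TRF, beside 1413 and 845 in the main fit. For the interaction it gave 2197 higher and 2231 lower, beside 1868 and 2261. With each library left out, 0 to 1 clock genes were called in DDP against CON, beside 225 to 268 of all genes higher and 17 to 27 lower. Same-numbered libraries did not deviate together (18 pairs, correlations -0.082 to 0.079), so the numbers were not taken as pairs. With a replicate block the counts were 4 in TRF against CON, 3 in TRF+DDP against DDP, 0 in DDP against CON, 2 in TRF+DDP against TRF, 3 in TRF+DDP against CON and 3 for the interaction, which gained NR1D2. Over all genes the interaction with the block was called higher for 1821 and lower for 2250, beside 1868 and 2261 in the main fit. Over 122 gene values and 2396 alternatives, 2284 kept direction and call, 73 lost the call, 20 gained it and 19 changed sign. Every change of sign concerned an uncalled value near 0. After quantile normalization these were CLOCK 0.203 in TRF+DDP against DDP, NR1D1 -0.031 in DDP against CON, and CRY1 -0.005 and DBP -0.049 in TRF+DDP against TRF. After TMM-style scaling they were CLOCK 0.039 in TRF+DDP against DDP and DBP -0.012 in TRF+DDP against TRF. With each library left out, CLOCK ranged from -0.049 to 0.303 in TRF against CON, from -0.15 to 0.166 in TRF+DDP against DDP and from -0.345 to 0.053 in the interaction. CRY2 ranged from -0.13 to 0.035 in the interaction, NR1D1 from -0.006 to 0.131 in DDP against CON, and in TRF+DDP against TRF NR1D2 ranged from -0.111 to 0.106 and DBP from -0.087 to 0.112. The cause of these changes was not tested. Depth per library is unknown, so that for PER2, PER3 and HLF, near or under 1 TPM, no counting error can be given.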

Other observations

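Enzymes and cofactors that act on clock proteins, were followed as a list of 16, of which 14 were tested. In TRF against CON 0 rose and 1 fell (PRKAA2, a catalytic subunit of AMPK), and in TRF+DDP against DDP 0 rose and 2 fell (PRKAA2 and NCOR1, the corepressor through which NR1D1 acts), and neither PRKAA2 call held after quantile normalization. Over all genes tested, 8.41% were higher and 17.1% lower in TRF against CON, and 11.8% higher and 21.4% lower in TRF+DDP against DDP. PRKAA2 averaged 0.59 TPM in TRF and passed the filter through the other groups, so the filter favours its fall in TRF. NCOR1 fell by 0.72 (limma adjusted p = 6.44e-06) in TRF+DDP against DDP. It spans 189.0 kb, and the part of that length was not tested.

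A list of 16 genes was followed for CREB, SRF and hormone inputs to the clock, and 15 were tested. It also held other regulators, such as ID2, HSF1 and DUSP1. In TRF against CON 0 rose and 2 fell (SIK3 and NR3C1), beside 8.41% of all genes higher and 17.1% lower. In TRF+DDP against DDP 1 rose and 5 fell, beside 11.8% higher and 21.4% lower. The SIK3 call in TRF against CON was lost after TMM-style scaling and quantile normalization. NR3C1, the glucocorticoid receptor, stood at 19.72, 23.51 and 17.32 TPM in TRF cells, against 33.58, 33.13 and 33.18 TPM in CON cells, and at 21.27, 19.67 and 19.96 TPM in TRF+DDP cells, against 35.44, 40.31 and 34.68 TPM in DDP cells. It fell by 0.71 (limma adjusted p = 3.28e-05) and 0.83 (adjusted p = 6.16e-06) in these comparisons. NR3C1 spans 157.6 kb and SIK3 255.0 kb, and the part of that length was not tested. CRTC1, a CREB coactivator, was at 3.06 to 3.56 TPM in TRF+DDP and 5.54 to 8.07 TPM in the other 9 libraries. ID2, a rhythmic inhibitor of helix-loop-helix factors, was at 49.93 to 66.67 TPM in TRF+DDP cells, against 16.42 to 18.81 TPM in DDP cells, and rose by 1.63 (adjusted p = 1.56e-07).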
